A study of Rattus norvegicus with 14 samples.

Results

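Entpd2 and the 7 other measured genes of extracellular nucleotide breakdown and adenosine reception were examined in perfused rat small intestine. They were chosen by gene symbol in the array's annotation (every Entpd gene with a number, Nt5e, and every adenosine receptor gene), which gave 8 of the 4156 genes with a symbol, each with 1 of the 4952 probes. Entpd2 stands first because an earlier analysis of the same arrays had called it at 4 h and between 4 h and 20 min, so its values in those comparisons are given as a description. The other 7 genes were taken by symbol alone: Entpd1, Entpd6, Nt5e, Adora1, Adora2a, Adora2b and Adora3. No other Entpd gene with a number was found under its own symbol in the annotation of the measured probes.

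Intestine of 20-day-old rats was perfused with solutions named HG and HF, taken here from knowledge of the study to be high glucose and high fructose, and RNA was compared on 14 arrays of 2 colours. The age carries a unit in the labels of arrays 1 to 5 only. Arrays 1 to 5 set HG against HF after 4 h in 5 numbered pairs, array 6 repeated pair 2 of that time, and arrays 7 to 10 set HG against HF after 20 min in 4 pairs. Arrays 11, 12 and 13 each set an RNA against itself (1HG, 3HG or 3HF, from 4 h perfusion) and are called self-self, and array 14 received labelling primers without named tissue RNA. No group was labelled as intestine without sugar, so a ratio shows HF against HG and cannot tell a rise with one from a fall with the other. The labels give neither strain nor sex, and they do not say whether pairs came from separate animals, so p-values rest on the spread between arrays alone. The labels name no layer of the intestinal wall, and ratios without signal levels do not allow a check of the tissue by its markers.

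ATP released by cells acts on P2 receptors and is then taken apart at the cell surface. Enzymes of the Entpd family remove terminal phosphates from ATP and ADP, Nt5e (CD73) turns the resulting AMP into adenosine, and the Adora genes encode the G protein-coupled receptors for adenosine. In the gut these steps are known from enteric nerves and glia, vessels, immune cells and the epithelium, where nucleotides and adenosine act on motility, secretion and inflammation. Entpd2 encodes an enzyme that prefers ATP to ADP, and it is known from enteric glia and from cells around nerves and vessels.

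Values are log ratios centred on the median of each array, read as log2. No source used here states their base or direction. The positive side is called the HF side, as likely and not settled: the title of array 6 marks HG with a 5 and HF with a 3, as if its dyes had been exchanged, and Slc2a5, the gene of the fructose transporter GLUT5, had a mean of 1.65 on arrays 1 to 5 and -1.66 on array 6. The sign about the self-self mean on array 6 was opposite to that of the mean of arrays 1 to 5 in 45.2% of all features. In the rest it was not. Over all features array 6 correlated at r = 0.41 with the mean of arrays 1, 3, 4 and 5 (0.04 once the self-self median was taken off). Lipa, a lysosomal lipase, had a mean of -0.56 at 4 h and -0.42 on array 6. If the direction were opposite, every sign below would turn and no size would change. The SD over all probes was 0.33 to 0.40 on arrays 1 to 5 and 7 to 10, 0.82 on array 6 and 1.39 on array 11, where 227 probes lay beyond 2. Array 6 stands outside the main fit and enters only alternatives in which it was averaged with array 2. Values are ratios and not levels, so no gene can be said to be more abundant than another, and a probe near background cannot be recognised.

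After 4 h Entpd2 lay on the HG side in every pair. Its log ratio was -0.97 on array 1, -0.81 on array 2, -0.69 on array 3, -1.40 on array 4 and -1.42 on array 5. Arrays 4 and 5 were the lowest and array 3 the least low, and all 5 lay below each of the 20 min and self-self arrays. Counted from the lowest of 4682 features, it held position 65, 125, 202, 48 and 25 on arrays 1 to 5. Its spread over the 5 pairs (SD 0.34) was larger than that of 86.8% of features.

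After 20 min the log ratio of Entpd2 was 0.23, 0.02, 0.19 and -0.10 on arrays 7 to 10. With the same RNA in both channels it was 0.05 for 1HG, 0.23 for 3HG and -0.01 for 3HF. These 2 groups overlapped. Array 3 sets the RNAs named 3HG and 3HF against each other, and Entpd2 was at -0.69 there, outside the values of the 2 self-self arrays of these names. The primer array gave -0.08.

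**Figure D1:**
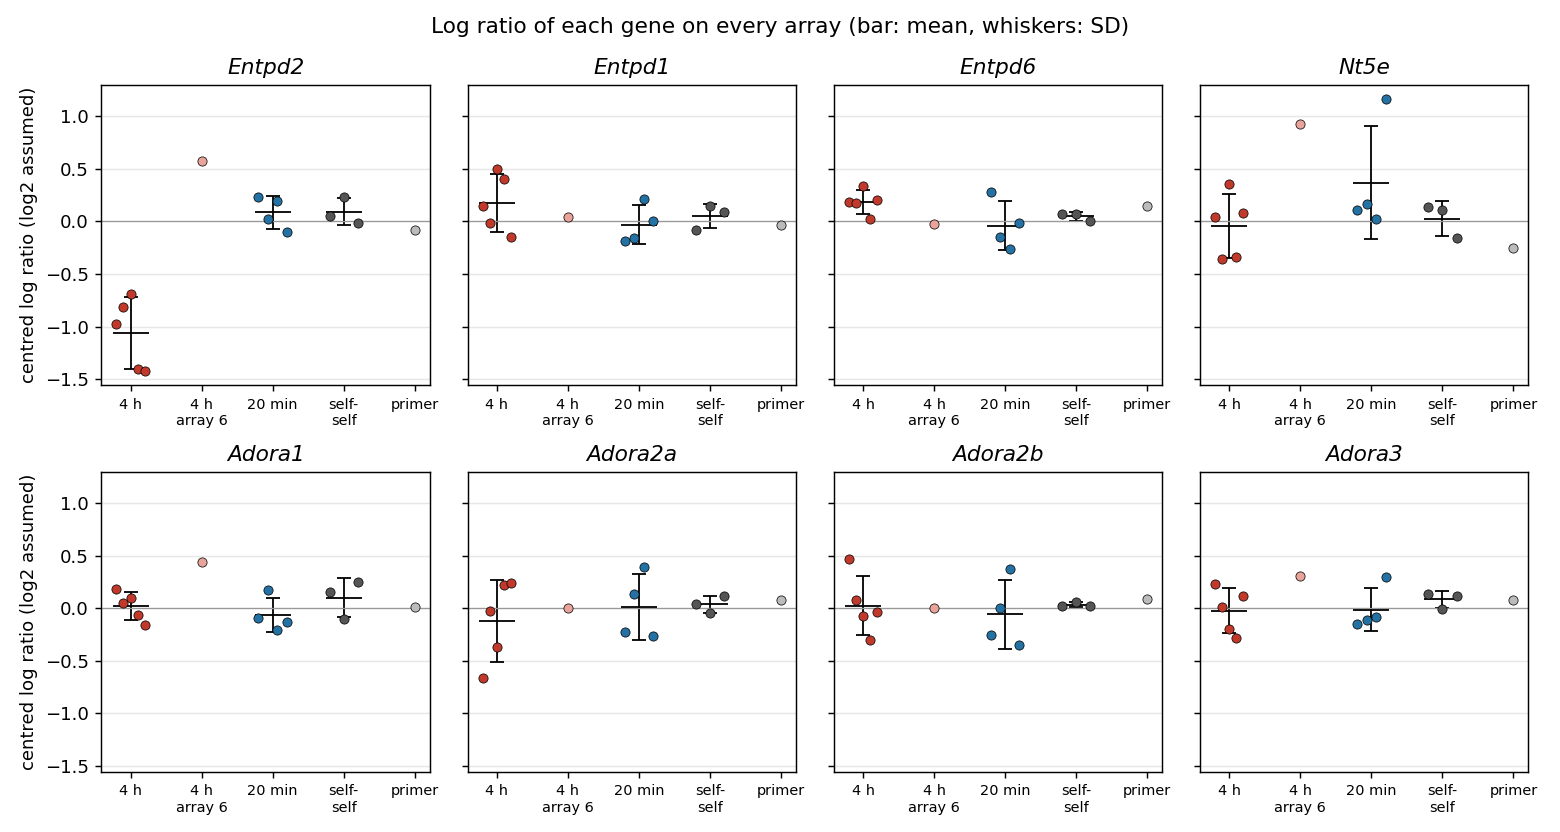
Centred log ratio (vertical axis, log2 assumed) of the 8 genes on each of the 14 arrays, with 1 point for each array and bars for the mean and SD of groups with 3 or more arrays. Entpd2 lies between -1.42 and -0.69 on the 5 arrays of 4 h, below its other arrays; Nt5e has 1 high value of 1.17 at 20 min.

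The mean of Entpd2 was -1.06 ± 0.34 (SD, n = 5) at 4 h, 0.09 ± 0.15 (SD, n = 4) at 20 min and 0.09 ± 0.13 (SD, n = 3) on the self-self arrays. The difference from the self-self arrays at 4 h was -1.15 ± 0.17 (SE), a 2.22-fold lower ratio, and the difference of 4 h from 20 min was -1.15 ± 0.16 (SE). These SEs share the spread of all 3 groups, and with only the 2 groups in the fit the first was 0.19. The self-self arrays carry RNA names of arrays 1 and 3, so they may not be further samples. Both differences contain the arrays that chose the gene, and both use the arrays of 4 h, so they are not separate evidence. Against the self-self arrays at 4 h, 0.0641% of all features were called in limma, a linear model fitted across all features (adjusted p by Benjamini-Hochberg, threshold 0.05), and in 6.71% the groups of arrays did not overlap. Between the times these shares were 0.598% and 6.54%. In order of p at 4 h Entpd2 was feature 3 and the last one called. Slc2a5, just ahead of it, differed by 1.69, and the first feature past the threshold, a probe without a symbol, by -0.50. The call of Entpd2 at 4 h held in 6 of 22 alternative analyses and, of the 12 with 1 array left out, in the 2 without array 2 or array 3, while its difference stayed between -1.28 and -1.01. Between the times the call held in 20 of 22 and was lost without array 8 and with array 6 averaged in as deposited.

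At 20 min the difference of Entpd2 from the self-self arrays was -0.01, with a 95% interval from -0.40 to 0.39. Both groups of arrays took part in the comparisons that chose the gene, so this too is a description. In this comparison 0.0427% of all features were called.

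On array 6, the second array of pair 2, Entpd2 was at 0.57, against -0.81 on array 2. Relative to the self-self mean the repeat lay 0.48 higher. Array 6 lay on the other side of the self-self mean from the mean of arrays 1 to 5 in 45.2% of all features. A turned sign is thus common there, and the self-self mean includes the array 1HG. Of the other members, Nt5e (0.92), Adora1 (0.44) and Adora3 (0.31) also lay above their self-self arrays on array 6, as did 36.5% of all features.

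None of the other 7 members was called in any comparison with limma, and none had an unadjusted p below 0.05. Of 4682 features 467 had one at 4 h, 244 at 20 min and 633 between the times. At 4 h the differences of the 7 members from the self-self arrays lay between -0.16 and 0.14. Their median was -0.07, against -0.01 over all features. There were 2 above 0 and 5 below, and 51.5% of all features lay below 0. Their adjusted p ranged from 0.698 to 0.989. The 95% intervals of these 7 differences reached no further than 0.63 in either direction, against -1.53 to -0.77 for Entpd2, which this comparison chose. At 20 min the differences ran from -0.17 to 0.34 (adjusted p from 0.889 to 0.992), and between the times from -0.41 to 0.23 (adjusted p from 0.416 to 0.994). For each of the 7 genes the groups of arrays overlapped in all 3 comparisons, where 6.71%, 7.01% and 6.54% of all features did not.

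**Figure D2:**
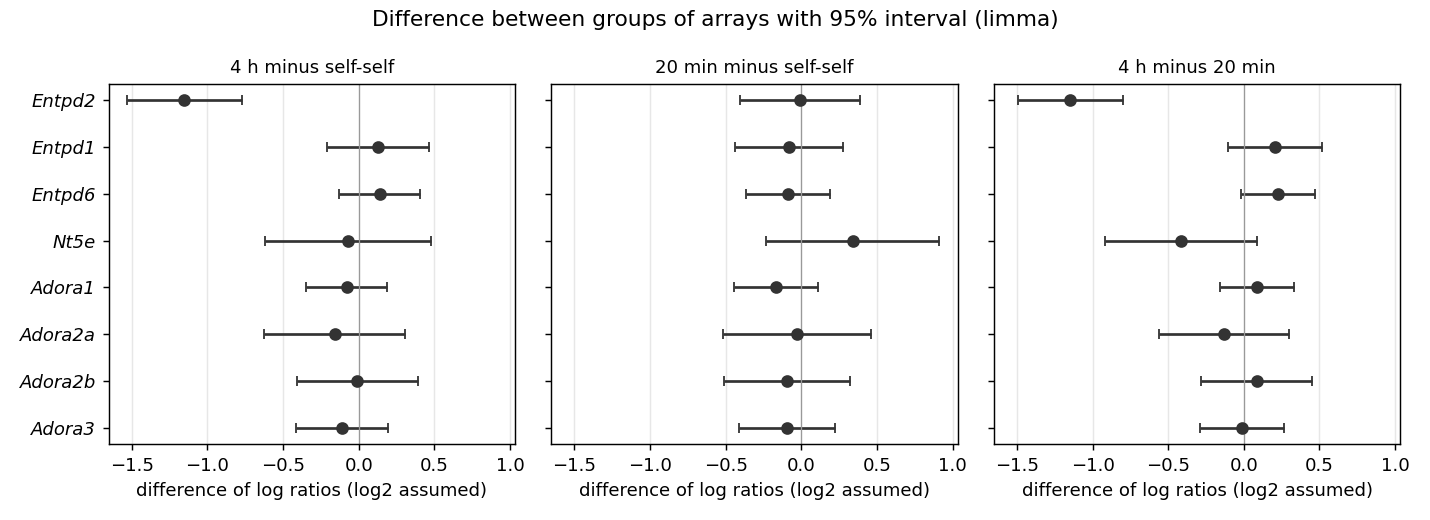
Difference of log ratios (horizontal axis, log2 assumed) of the 8 genes in the 3 comparisons, with points for the limma estimate and whiskers for its 95% interval. The intervals of the 7 genes other than Entpd2 include 0 in each panel; those of Entpd2 lie near -1.15 in the panels with the arrays of 4 h, which hold the arrays that chose it, and around 0 at 20 min.

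Entpd1 (CD39), which takes ATP and ADP down to AMP and is known from vessels and immune cells, had log ratios between -0.15 and 0.50 at 4 h, with arrays 3 (0.50) and 4 (0.40) highest. At 20 min it lay between -0.18 and 0.21. Its difference from the self-self arrays was 0.13 ± 0.16 (SE) at 4 h and -0.08 ± 0.16 at 20 min. The 95% interval of Entpd1 at 4 h ran from -0.21 to 0.47. That of Entpd2, which was chosen by this comparison, ran from -1.53 to -0.77. The 2 arrays on which Entpd1 was highest were the least low and the second lowest for Entpd2.

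Entpd6, an enzyme of the secretory pathway that prefers nucleoside diphosphates, was above 0 on all 5 arrays of 4 h. Its values were 0.18, 0.18, 0.34, 0.02 and 0.21 on arrays 1 to 5. They were 0.28, -0.15, -0.26 and -0.02 on arrays 7 to 10 and between 0.00 and 0.07 on the self-self arrays. The groups overlapped through array 4 and array 7. At 0.23 ± 0.11 (SE) the difference of 4 h from 20 min had the smallest p among the 7 genes (limma adjusted p = 0.416), and its 95% interval ran from -0.02 to 0.47. The difference from the self-self arrays was 0.14 ± 0.12 (SE) at 4 h.

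Nt5e, the enzyme that makes adenosine from AMP, gave no common direction at 4 h. Its log ratio was 0.04, -0.36, 0.35, -0.34 and 0.08 on arrays 1 to 5, with arrays 2 and 4 low and array 3 high. At 20 min it was 0.11, 0.17 and 0.03 on arrays 7 to 9 and 1.17 on array 10, where only 28 of 4682 features were higher. With that array the SD at 20 min was 0.54, larger than for 98.2% of features. The difference of 20 min from the self-self arrays, 0.34 ± 0.26 (SE; limma adjusted p = 0.892), came to 0.07 without array 10, and the difference of 4 h from 20 min, -0.41 ± 0.23 (SE; adjusted p = 0.488), to -0.15. On the self-self arrays Nt5e lay between -0.16 and 0.14, and on the primer array at -0.25, the lowest of the 8 genes there.

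The adenosine receptor genes fall by their usual coupling into Adora1 and Adora3, whose receptors lower cyclic AMP, and Adora2a and Adora2b, whose receptors raise it. Adora1 lay between -0.16 and 0.18 at 4 h and between -0.21 and 0.17 at 20 min, and its self-self arrays spanned as much, from -0.10 to 0.25. Adora3 lay between -0.28 and 0.23 at 4 h, and at 20 min 3 arrays lay between -0.15 and -0.08 and array 10 at 0.29. The differences from the self-self arrays at 4 h were -0.08 ± 0.12 (SE) for Adora1 and -0.11 ± 0.14 for Adora3.

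For Adora2a and Adora2b the self-self arrays, which set an RNA against itself and so hold no difference between samples, lay close together. So did those of Adora3 (from -0.01 to 0.14) and Entpd6 (from 0.00 to 0.07). Adora2a ran from -0.66 on array 1 to 0.24 on array 5 at 4 h and from -0.26 to 0.39 at 20 min, with self-self arrays between -0.04 and 0.12. Adora2b ran from -0.31 on array 4 to 0.46 on array 1 at 4 h and from -0.35 to 0.37 at 20 min, with self-self arrays between 0.02 and 0.06. Array 1 was thus the lowest of its group for Adora2a and the highest for Adora2b, and array 9 was the highest of the 20 min group for both. The SD of Adora2a at 4 h, 0.39, exceeded that of 91.6% of features, and the SD of Adora2b at 20 min, 0.32, that of 90.0%. Their differences from the self-self arrays at 4 h were -0.16 ± 0.21 (SE; limma adjusted p = 0.836) and -0.01 ± 0.18 (adjusted p = 0.989).

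The rest of the purine pathway was described with 9 lists of 70 genes in all, of which 37 were measured. At 4 h, with 0.0641% of all features called, 0 of the 37 were called in limma (lowest adjusted p 0.256). An unadjusted p below 0.05 was found for 4 of the 37 and for 467 of all 4682 features. There were 16 differences above 0 and 21 below, with a median of -0.04 against -0.01 over all features. Without the self-self array 1HG these were 14 above and 23 below, with a median of -0.06. At 20 min, with 0.0427% of all features called, 0 of 37 were called in limma (lowest adjusted p 0.8). There 3 of the 37 and 244 of all features had an unadjusted p below 0.05. Between the times, with 0.598% of all features called, also 0 of 37 were called (lowest adjusted p 0.162). In that comparison 3 of the 37 and 633 of all features had an unadjusted p below 0.05. Groups of arrays did not overlap for 1 of the 37 at 4 h, 2 at 20 min and 4 between the times. Over all features 6.71%, 7.01% and 6.54% did not overlap.

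The receptors for nucleotides gave no call. All 7 P2X genes, which encode ATP-gated channels, were measured, with 4 of 7 differences above 0 at 4 h and a median of 0.12, or 0.05 without the array 1HG. P2rx2, known from enteric neurons, differed by 0.44 ± 0.18 (SE; adjusted p = 0.448), P2rx7, the channel of immune cells, by -0.29 ± 0.15 (adjusted p = 0.492), and P2rx6 by 0.16 ± 0.11 (adjusted p = 0.573). Of the P2Y genes, which encode G protein-coupled receptors, 5 of 8 were measured, with 2 above 0 and a median of -0.04. P2ry2 (-0.13), P2ry14 (0.14) and P2ry6 (-0.14) had the smallest p there; without the array 1HG they were at -0.09, 0.09 and -0.00. Gja1, a connexin of the hemichannels that can release ATP and the single measured gene of that list, differed by -0.31 ± 0.38 (SE).

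Other surface phosphatases were 5 of 10 measured. Enpp1 and Enpp2, of the nucleotide pyrophosphatase family (the second is better known as the source of lysophosphatidic acid), differed by -0.90 and -0.98 at 4 h, and by -0.07 and -0.14 without the self-self array 1HG, on which they stood at 2.47 and 2.55. Intestinal alkaline phosphatase, Alpi, which also splits nucleotides, differed by 0.42 ± 0.39 (SE; adjusted p = 0.724), or 0.64 without that array, with self-self arrays between -2.06 and -0.17. None of the 7 genes listed for intracellular 5′-nucleotidases was found under its symbol.

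Among the 37 genes Slc28a1 had the smallest p at 4 h. Slc28a1, the sodium-coupled transporter for pyrimidine nucleosides and adenosine, had a difference of 0.56 ± 0.15 (SE; adjusted p = 0.256), which came to 0.34 without the array 1HG. It was the 1 gene of the 37 whose arrays of 4 h and self-self did not overlap, as in 6.71% of all features. Slc29a1 (-0.18, and -0.30 without that array) and Slc28a2 (-0.34) followed in its list. Adenosine kinase, Adk, differed by -0.32 ± 0.13 (SE; adjusted p = 0.466) and Ahcy, which releases adenosine from S-adenosylhomocysteine, by 0.35 ± 0.18 (adjusted p = 0.492). Between 4 h and 20 min these were -0.29 and 0.55 (adjusted p = 0.335 and 0.162). Dpp4, a surface peptidase, differed by -0.16 at 4 h.

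In purine salvage and breakdown Hprt1, which salvages hypoxanthine and guanine, differed by -0.41 ± 0.18 (SE; adjusted p = 0.468) at 4 h and by -0.22 without the array 1HG. Uox, urate oxidase, differed by -4.60, and by -0.16 without that array, where it stood at 13.74. Ampd1, an AMP deaminase, differed by 0.16. Among nucleotide kinases Nme6 (0.26), Nme7 (-0.37) and Nme1 (0.12) had the smallest p, and without the array 1HG they were at 0.14, -0.15 and 0.09.

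**Figure D3:**
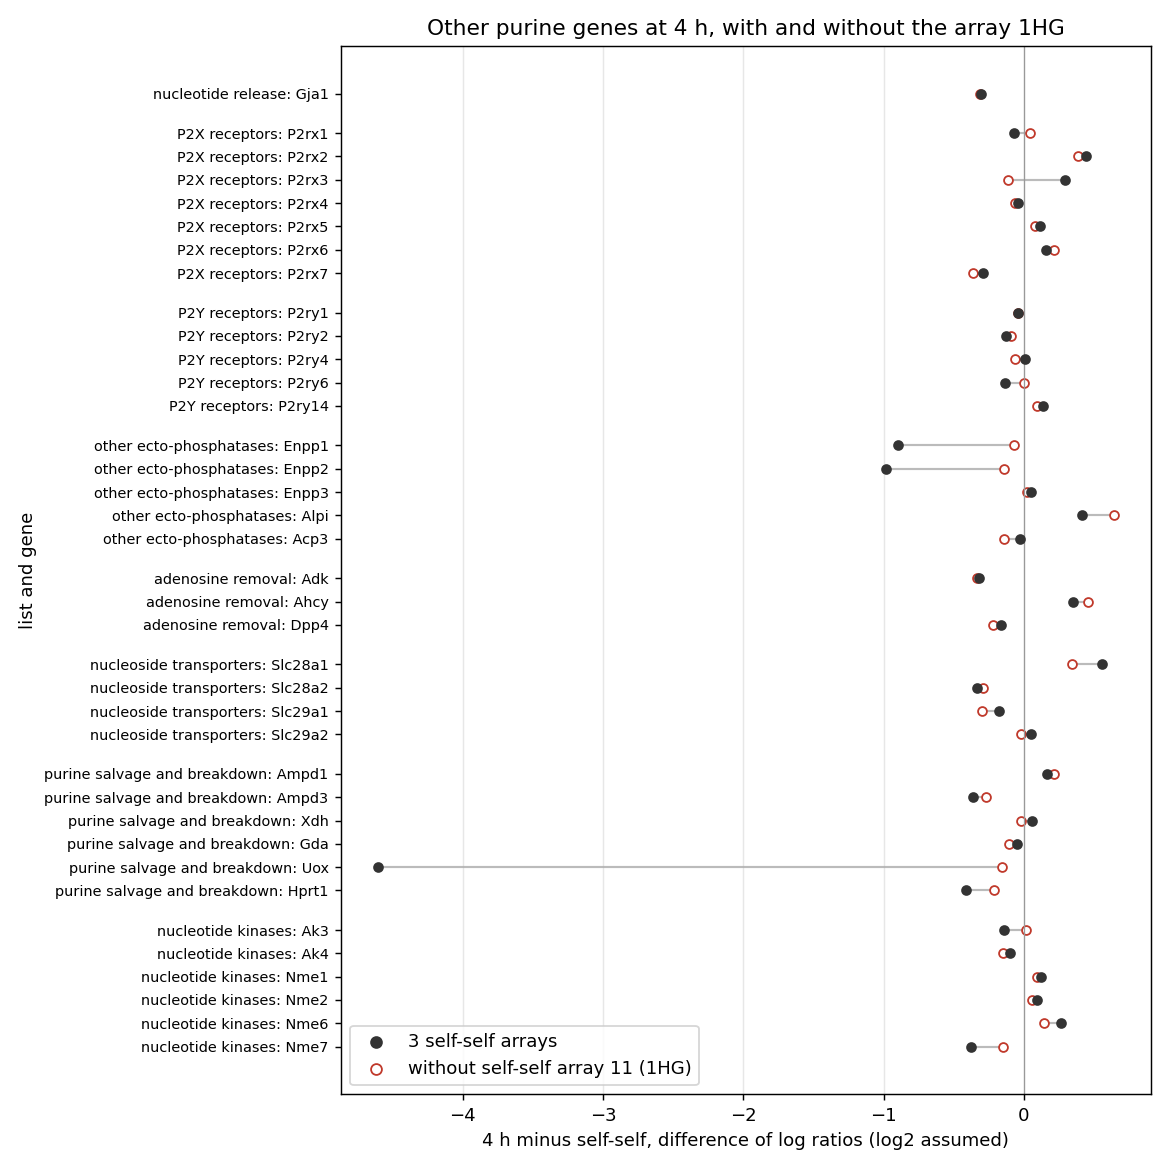
Difference of log ratios between the arrays of 4 h and the self-self arrays (horizontal axis, log2 assumed) for the 37 other measured purine genes by list, with all 3 self-self arrays (filled points) and without the self-self array 1HG (open points). Most pairs of points lie close together; Uox moves from -4.60 to -0.16, and Enpp1 and Enpp2 move from about -0.9 to near 0.

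The part of other cells in these ratios was not tested, and in whole tissue fewer cells of a type and less RNA per cell cannot be told apart. Of 10 lists of cell type markers, 80 entries with 61 genes measured, 0 genes were called at 4 h in limma (lowest adjusted p 0.155, for Apoa1). Over all features 0.0641% were called at 4 h, and 51.5% of the differences lay below 0. Enteric glia, where Entpd2 is known to be expressed, had 6 of 8 markers measured, with 6 of 6 differences above 0 at 4 h and a median of 0.08. Without the array 1HG 4 of 6 were above 0, with a median of 0.04. The median of the glial markers on single arrays ranged from -0.18 to -0.00 at 4 h and from -0.36 to 0.00 on the self-self arrays. The value of -0.36 was that of the array 1HG alone. Among the glial markers S100b differed by 0.08, Gfap by 0.07 and Sox10 by 0.00, and by 0.18, -0.05 and -0.06 without the array 1HG. Cnp differed by 1.57, Fabp7 by 0.27 and Mbp by 0.03, and by 0.12, 0.04 and 0.03 without that array. Fibroblast markers had 6 of 8 below 0 (median -0.12) and endothelial markers 6 of 6 (median -0.21; 5 of 6 and -0.11 without the array 1HG). The endothelial median on single arrays ran from -0.22 to -0.00 at 4 h, from 0.00 to 0.17 at 20 min and from -0.04 to 0.17 on the self-self arrays. The enterocyte median on single arrays ran from -0.42 to -0.13 at 4 h and from -0.16 to -0.01 at 20 min. On the self-self arrays it ran from -0.11 to -0.08, above all arrays of 4 h. In the other lists the ranges at 4 h and on the self-self arrays overlapped. Smooth muscle markers had 3 of 5 below 0 (median -0.12, and -0.06 without the array 1HG), enterocyte markers 5 of 8 (median -0.09), and enteric neuron markers 5 of 8 (median -0.11, and -0.04 without the array 1HG). Enteroendocrine markers had 6 of 8 below 0 (median -0.15, and -0.09 without it), T and B cell markers 3 of 6 (median -0.02, and 0.02 without it), macrophage and mast cell markers 3 of 4 (median -0.07) and goblet cell markers 0 of 2 (median 0.46, and 0.06 without the array 1HG).

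Over the 12 arrays of the fit no other member followed Entpd2 closely: Pearson r with Entpd2 was 0.31 for Nt5e, -0.40 for Entpd6, -0.29 for Entpd1 and between 0.03 and 0.07 for the 4 receptor genes. Among all genes with a symbol, Xpo1, an exporter of proteins from the nucleus, was the most alike (Pearson r = 0.94, Spearman 0.91), with a mean of -0.46 at 4 h and -0.03 at 20 min. Lipa (r = 0.91), Gnaq, a G protein subunit (0.89), Tle3, a corepressor (0.88), and Cryab, a small heat shock protein (0.88), followed, with means between -0.57 and -0.47 at 4 h. Entpd2 lay lower at 4 h than each of these 5, but it was chosen by its difference at 4 h, so this is a description. Within the 5 arrays of 4 h Pearson r with Entpd2 was 0.98 for Cryab, 0.85 for Xpo1, 0.84 for Lipa, 0.64 for Gnaq and 0.50 for Tle3. The most opposite genes were Cnga3 (r = -0.94), a channel subunit of cone photoreceptors, Slc2a5 (-0.89), Ndufs6-ps1 (-0.89), Nat1 (-0.88) and Polr1a (-0.87), a subunit of RNA polymerase I, and within the arrays of 4 h Slc2a5 had r = 0.44. These r are descriptions over arrays that share the step between 4 h and the rest, and they were picked as the extremes of all genes.

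**Figure D4:**
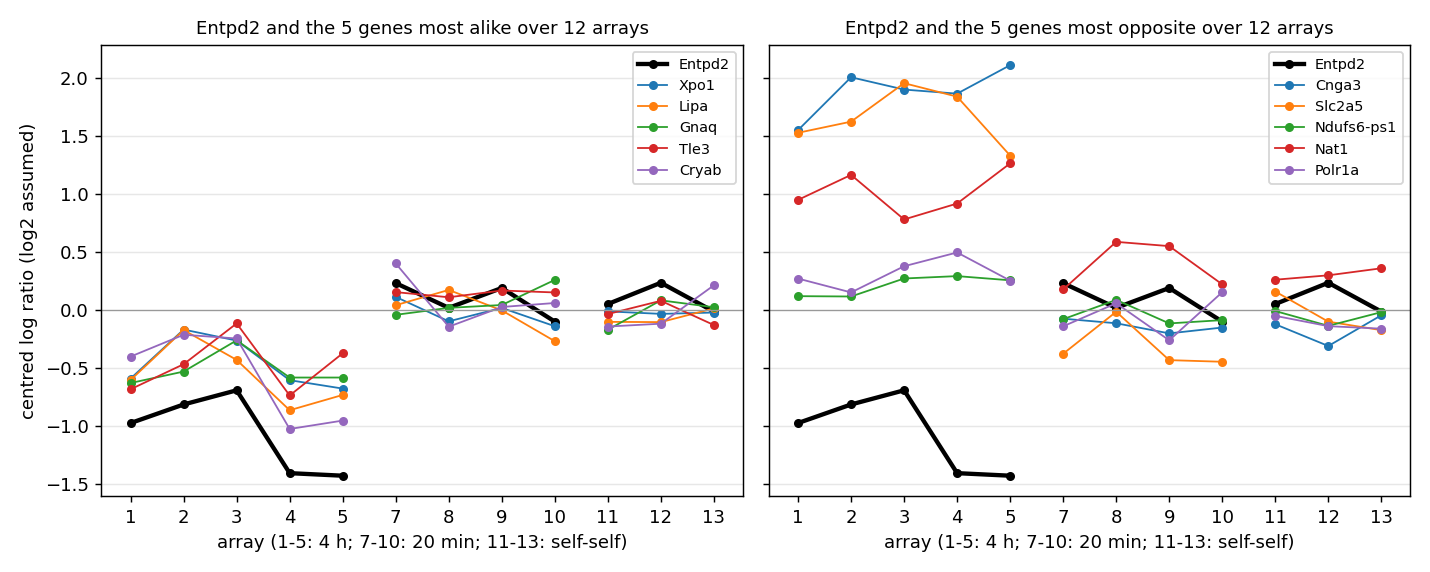
Centred log ratio (vertical axis, log2 assumed) of Entpd2 (black) with the 5 genes most alike (left) and most opposite (right) on the 12 arrays of the fit (horizontal axis), lines joining arrays of 1 group for the eye only. Arrays 4 and 5 are the lowest for Entpd2 and Cryab, and the opposite genes lie above 0 on all arrays of 4 h.

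Among the 20 protein-coding genes on each side of Entpd2 in the GRCr8 gene table, 8 were measured. Their differences from the self-self arrays at 4 h lay between -0.36 (Mamdc4) and -0.02 (Lcn5), with 8 of 8 below 0, and 6 of 8 without the array 1HG, where 51.5% of all features lay below 0 with all arrays. In limma 0 of 8 were called (lowest adjusted p 0.432, for Fcna), against 0.0641% of all features. The nearest of them, Abca2 and Dpp7, stood 3 genes away with -0.02 and -0.07.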

How the data were processed

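The values are the log ratios that the authors deposited in 1 table (4952 probes, 14 arrays, 0 missing), read here as log2. How they were scanned, background-corrected and normalized, their base and their direction are not stated in any source used here. Column medians between -0.07 and 0.02 lie close to 0, so some centring may precede deposit. Signal intensities were not analysed here. Of the probes 4426 have 1 symbol in the platform annotation, 2 several and 524 none. The Entrez identifier of 7 of the 8 members is in the GRCr8 gene table; that of Adora3 is not, though its symbol is.

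Each array was centred on its median and probes of 1 symbol were averaged, giving 4682 features. A single limma 3.58.1 fit (R 4.3.3; lmFit, eBayes; 9 residual and 2.84 prior degrees of freedom) held 12 arrays in 3 groups, with Benjamini-Hochberg adjustment over all features. Array 6 was left out. The steps were tested on simulated data. Members and lists were chosen with earlier results of these data known. Named are all members, up to 3 genes per purine list by p at 4 h, and the 5 genes with the highest and lowest r with Entpd2. Alternatives changed centring, scaling, averaging, groups, control, array 6, variance estimate and arrays.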

Additional observations from a re-analysis of the deposited data

Results flagged for a closer look

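Of 16 groups of member values examined, 2 had an array far from its group, where chance marks about 1 in 20: Nt5e at 1.17 on array 10 of the 20 min group, and Adora3 at 0.29 on the same array. The ratio of Entpd2 differed between the times, by -1.15 for 4 h minus 20 min, which is the comparison that chose it. On array 6, outside the main fit, Nt5e stood at 0.92, Entpd2 at 0.57, Adora1 at 0.44 and Adora3 at 0.31, each above its highest self-self value.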

How the results depend on the processing

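In 22 alternatives for each comparison the difference of Entpd2 kept its sign at 4 h (from -1.28 to -1.01) and between the times (from -1.25 to -1.01); at 20 min it lay between -0.06 and 0.09. Members other than Entpd2 were called in 0 of 462 values, and 22 of these changed sign. Counts of called features moved more, and the cause was not tested. Against the self-self arrays at 4 h (3 called) the count was 0 with array 6 averaged in as deposited and 763 without the self-self control. With 1 array left out it ran from 2 to 5, the latter without array 2. At 20 min (2 called) it was 384 without that control and 0 with arrays scaled to 1 spread, with the 2 groups alone in the fit and with each of 3 treatments of array 6. With 1 array left out it ran from 0 to 4. Between the times (28 called) it was 16 with arrays scaled to 1 spread, 18 with array 6 averaged in with its sign turned and 0 with it as deposited, and from 4 (without array 8) to 43 (without the array 1HG) with 1 array left out.

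The replicate block, which assumes that equal numbers at 4 h and 20 min pair the samples, gave 22 called features and -1.05 for Entpd2. Deviations of equal numbers correlated at -0.07, 0.16, -0.03 and -0.02, and those of unequal numbers between -0.17 and 0.20. The labels write the 20 min numbers in parentheses and do not say whether they are the pairs of 4 h, so the pairing is not settled. Depth cannot be given, since no signal over background was analysed.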
